A study of Equus caballus with 13 samples.

Results

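Zinc finger genes named ZNF followed by a number were examined in chondrocytes, the resident cells of cartilage, cultured from horses. They were chosen by name, as every gene whose symbol was ZNF followed only by digits. The authors' 2 tables of RNA kinetics held 263 such genes among 11331 genes in all. The table comparing old with young female cells (the age table) held 260 of 11056 genes, and the table comparing young male with young female cells (the sex table) held 261 of 11249. A total of 258 members were in both tables. ZNF619 and ZNF875 were in the age table only, and ZNF296, ZNF483 and ZNF835 in the sex table only.

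Most proteins of this family bind DNA through arrays of zinc fingers in which cysteine and histidine residues hold a zinc ion. Many of them also carry a KRAB domain, which recruits the corepressor TRIM28 (KAP1) and, through it, the histone methyltransferase SETDB1, heterochromatin proteins and histone deacetylases, so that the bound DNA is silenced; many KRAB genes lie in clusters that arose by duplication, and their best described targets are transposable elements. Other members carry no KRAB domain and act as activators, splicing factors, ribosome factors or cytoskeletal proteins. The name therefore covers several kinds of protein, and some ZNF names stand for proteins with other types of finger. No protein or promoter sequences were used here, so KRAB membership was taken from textbook knowledge for a short list of genes and was not read from the horse proteins.

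The cells were wild type and came from cartilage in 5 old female, 5 young female and 3 young male samples. All were cultured for 2 days and then given 4-thiouridine (4sU), a uridine analogue built into new RNA, for 4 h, so no group was left unlabelled. The labels call the animals old or young, and do not say that each sample was a separate animal. The same 5 young female samples were the reference of both tables.

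For each gene the authors gave 1 synthesis rate and 1 half-life per group, so each member in both tables had 4 half-lives, of which both young female values came from the same libraries. Half-lives are read as hours and synthesis rates as arbitrary units. The implied level is synthesis rate × half-life / ln 2, also in arbitrary units, and it holds only if RNA levels were steady during labelling. The tables gave no value per sample, so depth is unknown, no value below carries a replicate error, and differences could not be set against a spread between samples. The labels number 12 batches over the 13 samples, and batch 10 alone crosses groups (1 young female sample with 1 young male sample), so batch and group cannot be told apart. All 13 chondrocyte markers examined were listed in both tables, and their summed implied level was 1744990 in old against 1923250 in young female cells of the age table and 4644970 in male against 1836250 in the sex table's young female cells. All 5 fibroblast markers were listed, with summed levels of 73614 in old against 156727 in young female cells and 369017 in male against 149615 in young female cells. Of the defining markers of other cell types, 1 of 5 for leukocytes (CD14), 1 of 4 for endothelium (VWF), 1 of 3 for osteoblasts (IBSP), 0 of 3 for synovial lining and 0 of 2 for adipocytes were listed. The implied level of IBSP was 3676 in old against 2149 in young female cells and 9337 in male against 2052 in young female cells, that of CD14 4258 against 3548 and 3753 against 3389, and that of VWF 1341 against 1119 and 1101 against 1069.

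ZNF transcripts were short-lived in every group. In young female cells the median half-life of the members was 1.23 h in the age table (interquartile range 0.943 to 1.76 h) and 1.33 h in the sex table (1.02 to 1.84 h). It was 1.19 h (0.888 to 1.71 h) in old female cells and 1.33 h (0.925 to 1.95 h) in young male cells. All other genes had longer medians in each column, at 3.75 h and 3.85 h in young female cells, 3.52 h in old cells and 4.75 h in male cells. In every column the upper quartile of the members lay below the median of the other genes. Few members were long-lived: 17, 19, 19 and 25 members were over 4 h in the young female (age table), old, young female (sex table) and male columns, where 46.7%, 44.8%, 47.6% and 54.7% of all genes were. Over 24 h there were 0 members in each of these columns and 781 to 1356 other genes.

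**Figure D1:**
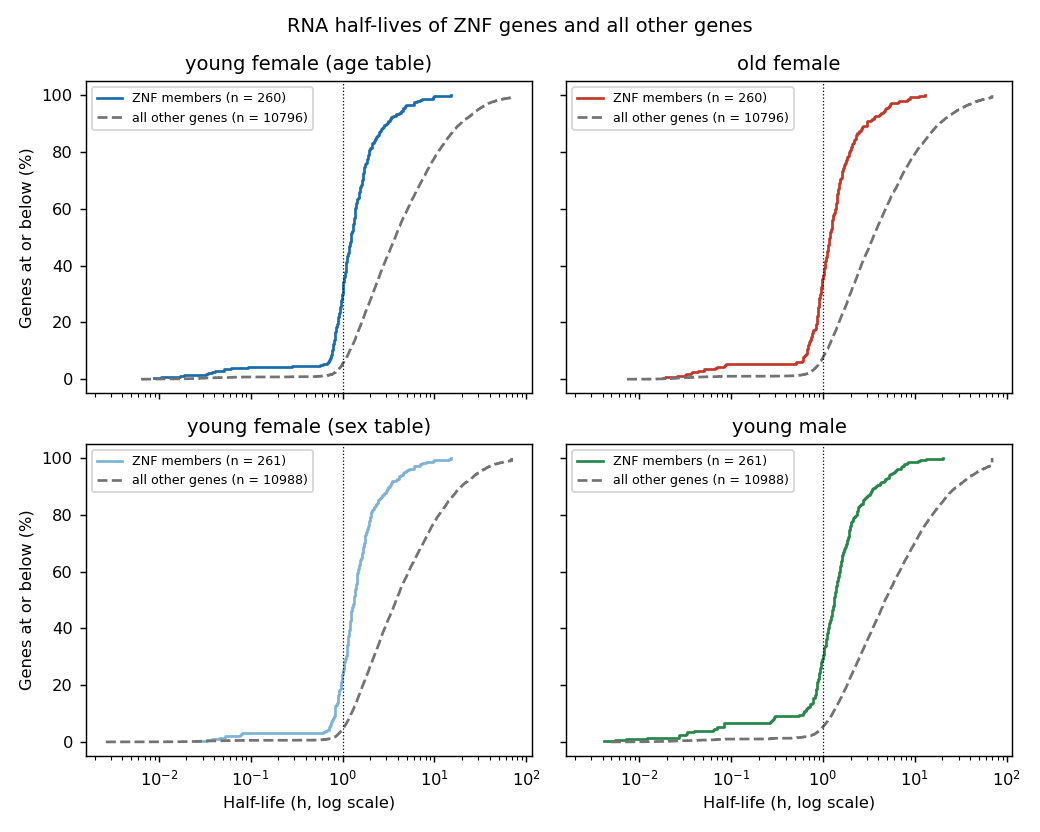
Cumulative share of genes (y axis, %) at or below each half-life (x axis, h, log scale) for ZNF members (solid) and all other genes (dashed), with 1 panel per group column and a dotted line at 1 h. From about the 5% level upward the solid lines lie to the left of the dashed lines, with member medians of 1.23, 1.19, 1.33 and 1.33 h in the panels for young female (age table), old female, young female (sex table) and young male, and each has a step of values under 0.1 h at its left end.

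A half-life under 1 h was listed for 78 of 260 members in young female cells of the age table, where 5.95% of all genes were under this limit. The count was 94 of 260 (36.2%) in old cells, against 8.29% of all genes. In the sex table it was 62 of 261 (23.8%) in young female cells, against 4.95% of all genes, and 79 of 261 (30.3%) in male cells, against 5.82%. ZNF members made up 2.35% of the genes in the age table and 2.32% of those in the sex table. They made up 11.9% and 10.3% of the genes under 1 h in young female and old cells of the age table, and 11.1% and 12.1% in young female and male cells of the sex table. The limit fell within a dense part of the distribution. In young female cells of the age table ZNF322 (0.995 h) and ZNF235 (0.996 h) lay just inside it, and ZNF790 (1.00 h) and ZNF134 (1.00 h) just outside.

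Values under 0.1 h stood apart from the rest. The tables do not say whether such a value is a resolved half-life or a failed estimate, so these values, and the synthesis rates and ratios made with them, are given as deposited and may not be real half-lives. The members' half-lives under 1 h were not continuous: in young female cells of the age table the highest value under 0.1 h was 0.0940 h (ZNF526) and the next value was 0.279 h (ZNF214). In old cells the gap ran from 0.0875 h (ZNF699) to 0.507 h (ZNF597), in the sex table's young female cells from 0.0805 h (ZNF79) to 0.609 h (ZNF526), and in male cells from 0.0846 h (ZNF200) to 0.267 h (ZNF790). The same gap was present over all genes, of which 0 lay from 0.1 to 0.2 h in each of the 4 columns. A half-life of 1 h means, under simple first-order decay, that 93.8% of a transcript was made within the 4 h of labelling, and one of 0.5 h that 99.6% was. For all half-lives under 0.5 h the share of older RNA that remains is thus below 0.391%.

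Under 0.1 h there were 11 members in young female cells of the age table (0.895% of all genes), 14 in old cells (1.17% of all genes), 8 in the sex table's young female cells (0.622%) and 17 in male cells (1.14%). Over the 258 members in both tables, 38 had such a value in one or more columns, where 2.92% of all genes had one. It was present in 1 column for 26 of these members, in 2 columns for 12 and in 3 or 4 columns for 0. In their other columns the same members had half-lives from 0.267 h (ZNF790, male) upward, and 15 of the 38 reached 1 h or longer in another column. The ratio of the longest to the shortest half-life of a member had a median of 24.5 over these 38 and reached 234 (ZNF226). The corresponding ratio of implied levels had a median of 1.48 and did not exceed 3.49. The 220 members with no value under 0.1 h had median ratios of 1.27 for half-life and 1.44 for implied level. A wide spread of half-life in the 38 follows from how they were picked, with values on both sides of the gap. The spread of implied level was not part of that choice, but the level is the product of 2 values fitted to the same libraries. Between the 2 young female columns 0 of 258 members and 0 of 10974 genes differed 2-fold in level. A narrow spread of level is thus not an independent observation.

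**Figure D2:**
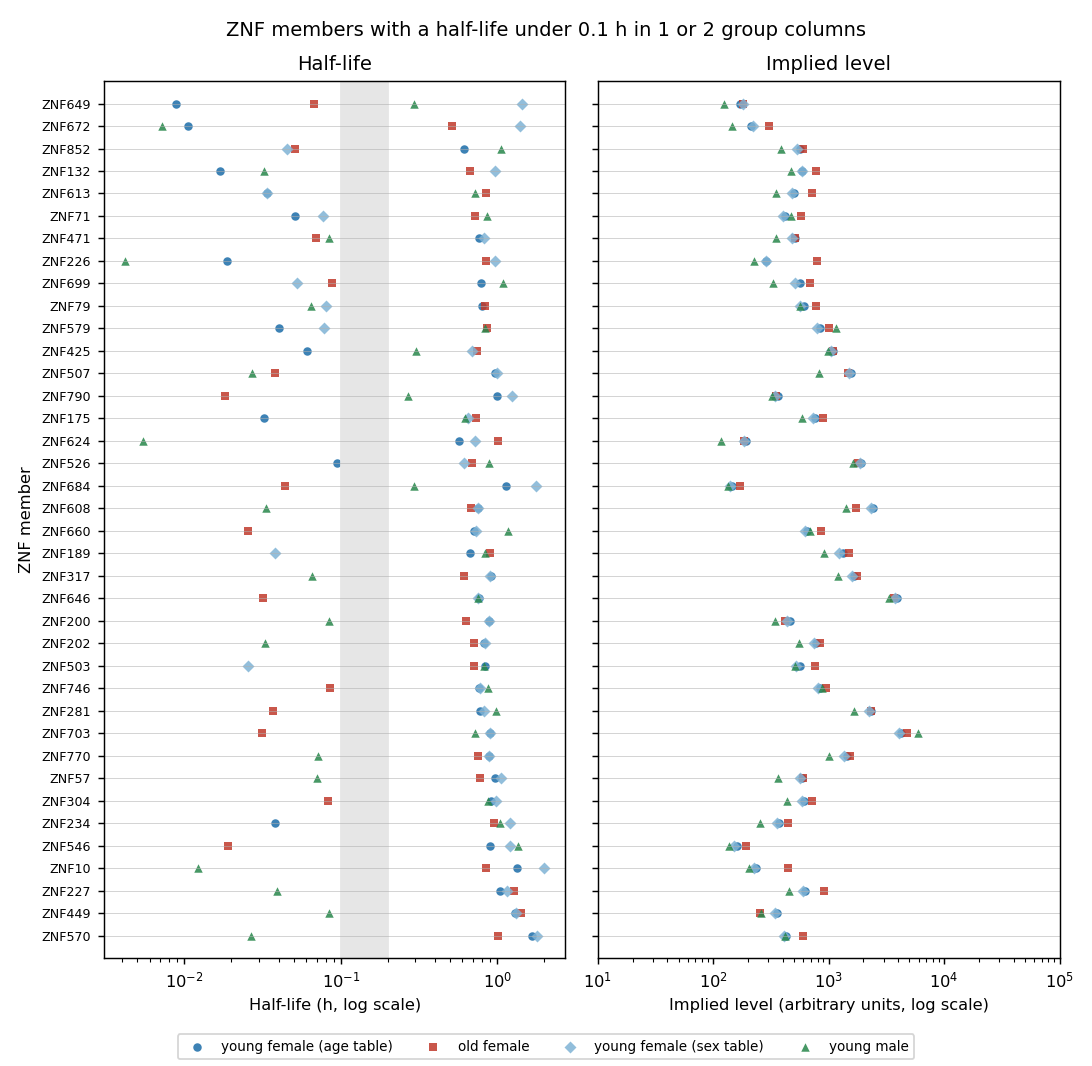
Half-life (left, h, log scale) and implied level (right, arbitrary units, log scale) of the 38 ZNF members in both tables with a half-life under 0.1 h in 1 or 2 group columns, 1 row per member, with 1 point per group column; the grey band marks 0.1 to 0.2 h, where 0 values lie. Points on the left split into a group under 0.1 h and a group from 0.267 h upward, while the points of a row on the right span at most 3.49-fold.

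The same libraries could give either kind of value. Of the 16 members under 0.1 h in young female cells of either table, 13 were at 0.1 h or longer in young female cells of the other table, 8 of them low in the age table and 5 low in the sex table. The exceptions were ZNF71, ZNF579 and ZNF613, which were low in both. ZNF649, a KRAB member, had a young female half-life of 0.00883 h in the age table and 1.43 h in the sex table, with synthesis rates of 13302 and 87.3 and implied levels of 170 and 181. ZNF672 had 0.0106 h and 1.41 h, with implied levels of 213 and 222. ZNF852 moved the other way, from 0.611 h in the age table to 0.0453 h in the sex table, with implied levels of 565 and 532. In each of these 3 members the half-life and the synthesis rate changed by similar factors in opposite directions. The young female half-lives of 14 of 258 members differed at least 2-fold between tables, against 0.975% of all genes. All of this movement is between 2 estimates from the same 5 samples, and it contains no variation between animals. Synthesis rates and implied levels also carried an offset between the tables. Over all genes the sex table's young female values had median log2 ratios of −0.066 for synthesis rate and −0.067 for level to those of the age table. Comparisons below with the other table's young female column include this offset.

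**Figure D3:**
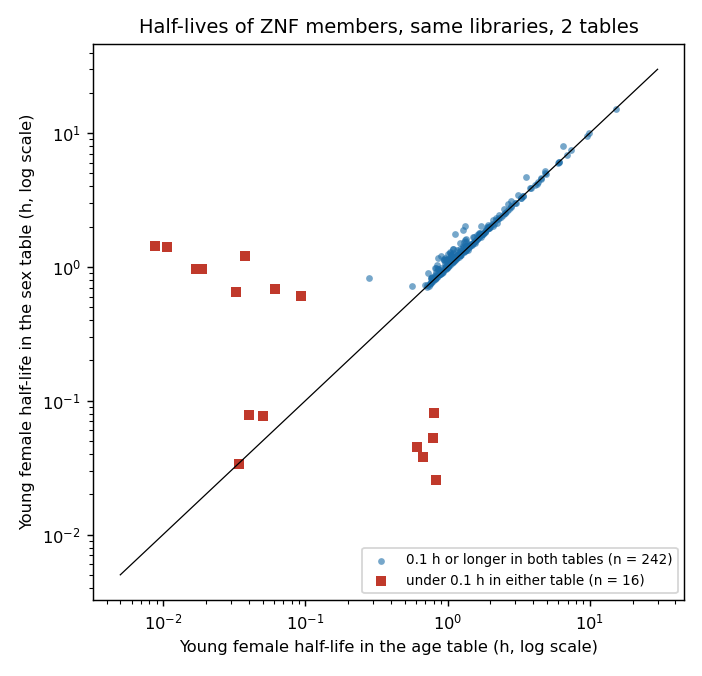
Young female half-lives of the 258 ZNF members in both tables, age table on the x axis and sex table on the y axis (h, log scales), with the line of equality; squares mark the 16 members under 0.1 h in either table and circles all others. Circles lie near the line except for ZNF214 (0.279 and 0.830 h), and 13 of the 16 squares lie far from it.

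The 10 members with the shortest median half-life over the 4 columns all belonged to this class, with medians from 0.181 h (ZNF649) to 0.439 h (ZNF79). They were ZNF649, ZNF672, ZNF852, ZNF132, ZNF613, ZNF71, ZNF471, ZNF226, ZNF699 and ZNF79, and each had exactly 2 columns under 0.1 h, so that each median is the mean of a value under 0.1 h and a longer one, and the ranking reflects how many such values a member had. ZNF226 was listed at 0.0186 h in young female cells of the age table, 0.850 h in old cells, 0.971 h in the sex table's young female cells and 0.00415 h in male cells. ZNF132 had 0.0170, 0.668, 0.967 and 0.0325 h in the same order, and ZNF471 had 0.765, 0.0698, 0.820 and 0.0843 h. No group was low throughout: ZNF132 and ZNF226 were low in young female and male cells, ZNF471 in old and male cells, and ZNF613 and ZNF71 in both young female columns.

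Other members were under 1 h without a value under 0.1 h. Of the 258 members, 47 (18.2%) were under 1 h in all 4 columns, compared with 3.36% of all genes, and 23 of the 47 had at least 1 value under 0.1 h. A further 28 were under 1 h in 1 column, 17 in 2 and 21 in 3, where 3.29%, 1.90% and 1.54% of all genes were. The remaining 145 (56.2%) were at 1 h or longer in all 4 columns, as were 89.9% of all genes. For 22 of the 47, all 4 half-lives lay between 0.5 and 1 h. They were ZNF2, ZNF3, ZNF24, ZNF135, ZNF184, ZNF217, ZNF248, ZNF264, ZNF322, ZNF329, ZNF397, ZNF473, ZNF574, ZNF596, ZNF614, ZNF623, ZNF629, ZNF644, ZNF655, ZNF740, ZNF800 and ZNF830. ZNF397, which carries a SCAN domain for pairing with other zinc finger proteins, had 0.700 h and 0.727 h in young female cells, 0.689 h in old and 0.695 h in male cells. ZNF24, another SCAN protein, had 0.969 and 0.966 h in young female cells, 0.829 h in old and 0.962 h in male cells, with an implied level of 8011 in young female cells of the age table against a member median of 816. ZNF217, a partner of the CtBP corepressors, had 0.857 and 0.886 h in young female cells, 0.613 h in old and 0.786 h in male cells. ZNF644, which acts with the histone methyltransferases G9a and GLP, had 0.815 and 0.806 h, 0.879 h and 0.913 h. ZNF214 and ZNF597 were also under 1 h throughout with no value under 0.1 h, but their shortest values were 0.279 h and 0.271 h.

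At the other end, 14 of 258 members (5.43%) were over 4 h in all 4 columns, compared with 43.0% of all genes in both tables. The longest-lived was ZNF219, described as a partner of SOX9 in switching on cartilage genes such as COL2A1, with 15.2 h in young female cells of both tables, 12.8 h in old cells and 20.2 h in male cells. ZNF185, a LIM domain protein of the actin cytoskeleton, had 9.84 and 9.99 h in young female cells, 11.2 h in old and 10.9 h in male cells. The next of these 14 by median half-life was ZNF428, from 7.59 to 9.61 h over the columns. It was followed by ZNF84, a KRAB member, from 7.39 to 11.4 h, and ZNF76, a close relative of ZNF143, from 6.77 to 8.23 h. ZNF185 does not carry the classical DNA-binding finger, so the long-lived end of the family included a protein of another kind. The remaining members over 4 h throughout were ZNF326, ZNF358, ZNF367, ZNF391, ZNF511, ZNF532, ZNF575, ZNF580 and ZNF704.

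Synthesis rates of the members were above those of all genes, and their implied levels below. The median synthesis rate was 490 for members against 318 for all genes in young female cells of the age table, and 593 against 339 in old cells. In the sex table it was 421 against 291 in young female cells and 384 against 236 in male cells. Median implied levels were 816 against 1615, 905 against 1624, 773 against 1505 and 713 against 1460 in the same order of columns. The highest implied level among the members was that of ZNF395 in each group, at 15448 and 14751 in young female cells, 12967 in old and 12252 in male cells; it was named after its values were seen. ZNF207, a spindle protein also known as BuGZ, had 10818 and 10329 in young female cells, 10486 in old and 8244 in male cells. Members with the highest mean synthesis rates were ZNF703, ZNF646, ZNF507, ZNF226 and ZNF281, and each owed its rank to columns with a half-life under 0.1 h. ZNF703, which binds TLE corepressors, had synthesis rates of 3244 and 3110 in young female cells, 105285 in old and 5717 in male cells, with half-lives of 0.905, 0.901, 0.0314 and 0.724 h. Among members in both tables, the lowest mean synthesis rates were those of ZNF428 (16.6), ZNF554 (23.6) and ZNF423 (28.3). Across members, synthesis rate and half-life had Spearman correlations from −0.53 (260 members, young female of the age table) to −0.57 (261 members, both columns of the sex table), and over all genes from −0.42 to −0.44. Without half-lives under 0.1 h the members' correlations were weaker, from −0.46 (246 members, old) to −0.52 (253 members, young female of the sex table). Synthesis rate and half-life come from the same fit of the same libraries, so their errors are not independent.

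Members with described roles were taken as a list of 13 measured KRAB genes and a list of 32 measured genes without a KRAB domain. The KRAB list had median half-lives of 1.08 h (young female, age table), 0.942 h (old), 1.15 h (young female, sex table) and 1.03 h (male), and the list without KRAB had 1.55, 1.44, 1.56 and 1.57 h. In each column 6 to 8 of the 13 KRAB genes and 8 or 9 of the 32 others were under 1 h, where 23.8% to 36.2% of all ZNF members and 4.95% to 8.29% of all genes were. Over the 4 columns, 4 of 13 KRAB genes (ZNF10, ZNF175, ZNF189 and ZNF202) and 3 of 32 others (ZNF281, ZNF503 and ZNF703) had a value under 0.1 h, as did 38 of the 258 ZNF members in both tables and 2.92% of all genes. The lists overlapped widely in half-life, and no error accompanies the medians.

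Among the KRAB genes, ZNF274, which brings SETDB1 to the ends of other zinc finger genes, had 1.09 and 1.36 h in young female cells, 1.41 h in old and 1.56 h in male cells. ZNF445, which protects imprinted regions, had 0.826 and 0.866 h, 0.942 h and 1.39 h. ZNF300 was the longest-lived of the list in each column, at 3.27 and 3.26 h in young female cells, 4.34 h in old and 4.17 h in male cells. ZNF10 (KOX1), whose KRAB domain is used in engineered repressors, had 1.34 and 2.01 h in young female cells and 0.844 h in old cells but 0.0123 h in male cells, with an implied level of 202 in male cells against 225 in the sex table's young female cells.

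Among genes without a KRAB domain, ZNF326, a factor that couples transcription and splicing, had 5.94 and 5.97 h in young female cells, 6.51 h in old and 7.04 h in male cells. ZNF598, a ubiquitin ligase that senses collided ribosomes, was steady at 3.37 h in young female cells of both tables, 3.56 h in old and 3.75 h in male cells. ZNF143, an activator that binds promoters, had 1.38 and 1.40 h, 1.42 h and 1.85 h. ZNF410, an activator of the remodeller gene CHD4, had 1.17 and 1.18 h, 1.13 h and 1.43 h. ZNF423, a cofactor of EBF and SMAD proteins, was less steady, at 6.44 and 8.01 h in young female cells, 5.19 h in old and 3.35 h in male cells.

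**Figure D4:**
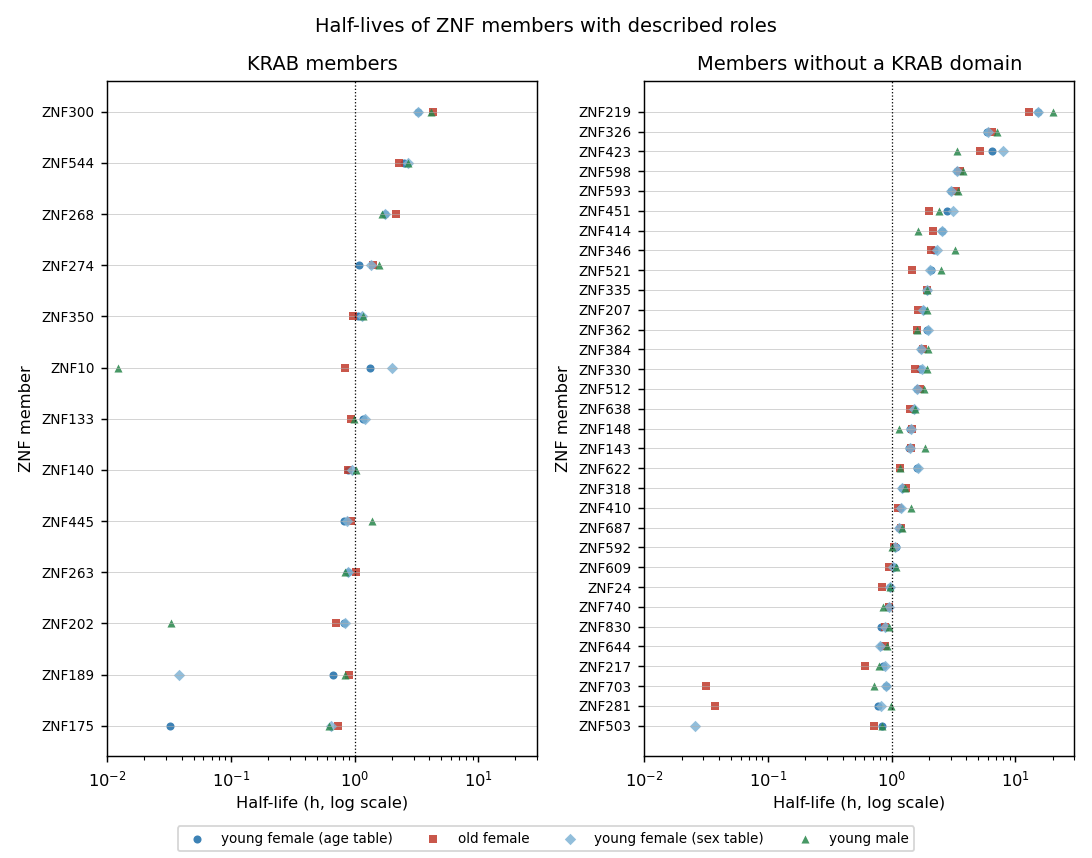
Half-lives (x axis, h, log scale) of 13 KRAB members (left) and 32 members without a KRAB domain (right), 1 row per gene and 1 point per group column, with a dotted line at 1 h. ZNF219 lies highest on the right, from 12.8 to 20.2 h, ZNF300 highest on the left, from 3.26 to 4.34 h, and 7 rows have a single point under 0.1 h.

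The corepressor genes with which KRAB proteins act were longer-lived. Of a list of 20 genes of the KAP1 pathway and allied corepressors, 19 were listed, 0 of them were under 1 h in any column (4.95% to 8.29% of all genes were, so 0 of 19 is near that share), and the median half-life was 3.89 h (young female, age table), 3.28 h (old), 3.88 h (young female, sex table) and 4.08 h (male), where the medians of all genes were 3.64, 3.43, 3.74 and 4.63 h. TRIM28 had 4.15 and 4.14 h in young female cells, 3.28 h in old and 4.00 h in male cells, SETDB1 had 1.63, 1.64, 1.43 and 1.52 h, and CHD4 had 3.89, 3.88, 3.32 and 4.08 h in the same order. None of the 19 differed 2-fold in half-life, synthesis rate or implied level in either comparison. By age, 3.53% of all genes were past 2-fold in half-life, 7.52% in synthesis rate and 4.12% in level, and by sex 7.58%, 12.2% and 4.61%, so a count of 0 among 19 genes sets the list apart in none of them.

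Gene order was compared through RefSeq's horse gene table of the TB-T2T assembly, which is not the build of the deposited values, so it served for neighbours only. A total of 237 members were matched by symbol and 26 were not. Of the matched members, 105 (44.3%) had a directly adjacent protein-coding gene named ZNF, ZFP, ZSCAN or ZKSCAN, and 37 of the other 132 had an adjacent gene with no assigned name. The median half-life was 1.22 h with such a neighbour and 1.35 h without in young female cells of the age table, and 1.19 and 1.25 h in old cells. In the sex table it was 1.29 and 1.43 h in young female cells and 1.34 and 1.37 h in male cells. The median was lower beside another zinc finger gene in each of the 4 columns, and the difference was not tested. The lower quartile was not lower in each column. With and without such a neighbour it was 0.962 and 0.989 h in young female cells of the age table. In old cells it was 0.907 and 0.906 h. In the sex table it was 1.02 and 1.03 h in young female cells and 1.01 and 0.909 h in male cells. Under 1 h in male cells there were 26 of 104 members with such a neighbour and 42 of 132 without. The share under 1 h was higher with one in the other columns. Over 4 h there were 4 of 105 members with and 12 of 129 without such a neighbour in young female cells of the age table. Neighbours in 1 row also differed among themselves: the 6 adjacent members from ZNF605 to ZNF268 ranged from 0.891 to 2.01 h in young female cells of the age table. In the row of 7 from ZNF425 to ZNF746, ZNF425 was at 0.0608 h in that column but at 0.686 h in the other table's values for the same libraries, and the other 6 ranged from 0.766 to 1.45 h. Duplicated zinc finger genes share sequence, and how reads that fit several copies were counted is not given in the sources used here, so values of close paralogs are uncertain.

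The age table set old against young female cells. The members' half-lives shifted little with age, while their implied levels leaned upward in old cells. On the log2 scale the half-life ratio (old over young) had a median of −0.04 over 260 members and −0.08 over all genes; with the other table's young female column, from the same libraries, the members' median was −0.12. The median for synthesis rates was 0.23 against 0.08, and 0.37 for members with that other column. That of implied levels was 0.17 (1.13-fold) against 0.00, with 189 of 260 members (72.7%) at a higher level in old cells against 50.7% of all genes. By size, 12 members had at least 2-fold longer and 13 at least 2-fold shorter half-lives in old cells, with 1.47% and 2.06% of all genes past these limits. With the sex table's young female values, from the same libraries, the split was 6 longer and 15 shorter. Of the 25 members in the age table, 24 had a half-life under 0.1 h in one of the groups, and the level ratio of 23 was under 0.5 on the log2 scale in either direction. Among the 236 members with both half-lives at 0.1 h or longer, 1 was past 2-fold (ZNF214, whose young female half-life was 0.279 h), against 1.72% of all genes. In the sex table the young female half-life of ZNF214 was 0.830 h, against 0.910 h in old cells, so it was not past 2-fold by that column.

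Synthesis rates were at least 2-fold higher in old cells for 19 members and lower for 13, with 4.59% and 2.92% of all genes past these limits. With the sex table's young female values, and so with the offset between the tables, the split was 26 higher and 6 lower. Of the 32 in the age table, 24 had a half-life under 0.1 h in one of the groups. Without these, 8 were past 2-fold, against 5.80% of all genes: ZNF3, ZNF10, ZNF217, ZNF451, ZNF570 and ZNF594 were higher and ZNF214 and ZNF469 lower. Neither of the lower members reached 2-fold against the sex table's young female values. By that column ZNF214 was at 136 in old against 168 in young female cells, and ZNF469 at 107 against 206. The offset of −0.066 between the 2 young female columns was not removed, and ZNF469 was close to the limit by either column. For implied level 2 members were at least 2-fold higher and 0 lower, with 2.13% and 1.99% of all genes past these limits. These 2 were ZNF226, at 789 in old against 289 in young female cells, and ZNF461, at 388 against 194. ZNF226 also had a young female half-life under 0.1 h.

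Restricted to the 145 members with half-lives of 1 to 24 h in all 4 columns, 0 were past 2-fold for half-life (0.821% of all genes in that range), 3 for synthesis rate (4.33%) and 1 for implied level (3.09%). The most negative log2 ratios of half-life in this range were those of ZNF454, at 1.51 h in old against 2.64 h in young female cells, ZNF594, at 2.61 against 4.54 h, and ZNF404, at 1.43 against 2.23 h. The most positive were those of ZNF341, at 4.90 against 3.11 h, ZNF554, at 5.45 against 3.58 h, and ZNF367, at 8.96 against 6.07 h. None of these 6 reached 2-fold. For ZNF554 the young female half-life was 4.72 h in the sex table, so a large part of its difference is within the spread between the 2 estimates from the same libraries.

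The highest log2 ratios of synthesis rate within 1 to 24 h were those of ZNF594 (1.23), ZNF451 (1.02), a SUMO ligase that acts on TGF-beta signalling, and ZNF112 (0.89). The lowest were those of ZNF469 (−1.03), whose loss causes brittle cornea syndrome, a disorder of collagen-rich tissue, ZNF311 (−0.78) and ZNF236 (−0.78). Implied levels had their highest log2 ratios for ZNF461 (1.00), ZNF112 (0.95) and ZNF892 (0.84), and their lowest for ZNF469 (−0.99), ZNF423 (−0.81) and ZNF311 (−0.52). ZNF469 had an implied level of 304 in old against 607 in young female cells, with half-lives of 1.98 and 1.92 h, so the difference lay in the synthesis rate, which was 107 against 219.

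The upward lean of levels in old cells was present in each range of half-life from 0.1 h upward. With genes ordered by the male half-life, which did not enter the ratio, the median log2 level ratio of the members was 0.19 at 0.1 to 1 h (62 members), 0.18 at 1 to 1.5 h (75 members), 0.14 at 1.5 to 2 h (45 members), 0.14 at 2 to 4 h (36 members) and 0.18 over 4 h (23 members). For all other genes in the same ranges it was 0.02, 0.02, 0.01, −0.00 and −0.01. The share of members at a higher level in old cells ran from 68.9% to 75.8% over the ranges, and that of other genes from 48.7% to 55.0%. KRAB genes of the role list had a median of 0.27, with 11 of 13 higher in old cells, and the list without KRAB 0.10, with 19 of 32 higher, where 72.7% of all members and 50.7% of all genes were higher. These are differences of group values with no replicate error. In bulk cultures fewer cells of a type and less RNA per cell cannot be told apart, and the part of the fibroblast and osteoblast marker differences given above was not tested.

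**Figure D5:**
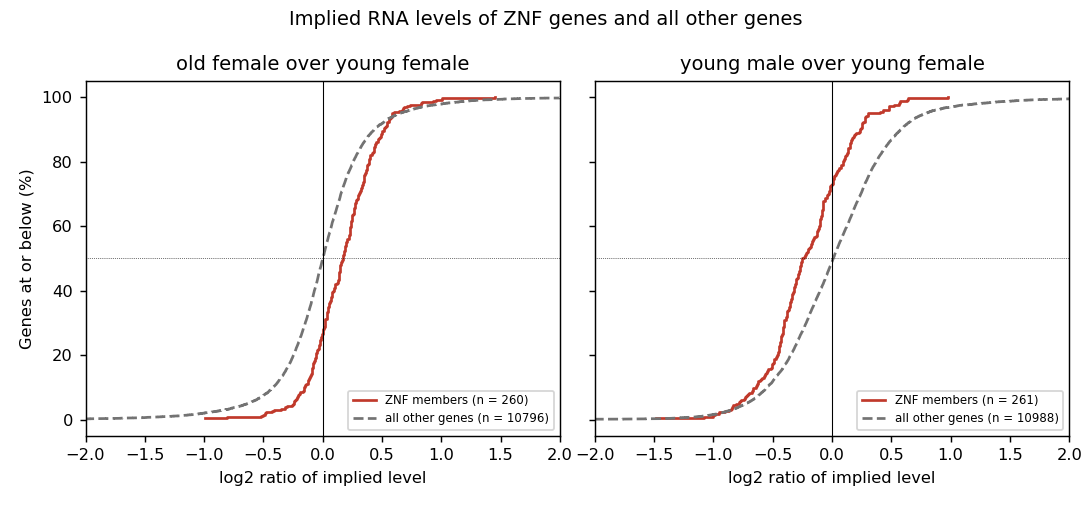
Cumulative share of genes (y axis, %) at or below each log2 ratio of implied level (x axis), old over young female on the left and young male over young female on the right, for ZNF members (solid) and all other genes (dashed). Around the median the solid line is to the right of the dashed line by age, with a member median of 0.17, and to its left by sex, with a member median of −0.25; each axis is limited to −2 to 2, beyond which some of the other genes lie.

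The sex table set young male against young female cells. ZNF half-lives were lengthened less in male cells than those of genes as a whole, and implied levels were lower. On the log2 scale the half-life ratio (male over female) had a median of 0.05 over 261 members and 0.27 over all genes, and 53.6% of members were longer in male cells against 77.3% of all genes. Relative to the shift of all genes the members' median was −0.22. Synthesis ratios had a median of −0.22 against −0.28 for all genes, which is 0.057 relative to that shift. Implied levels had a median of −0.25 (0.840-fold) against 0.01, with 190 of 261 members (72.8%) lower in male cells against 49.5% of all genes. Among the 145 members with half-lives of 1 to 24 h in all 4 columns it was −0.10 against −0.02 for all genes in that range, with 61.4% lower against 51.6%.

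By size, 10 members had at least 2-fold longer and 25 at least 2-fold shorter half-lives in male cells, with 5.62% and 1.96% of all genes past these limits. Of the 35, 23 had a half-life under 0.1 h in one of the groups, 16 of them shorter in male cells and 7 longer. Among the 237 members with both half-lives at 0.1 h or longer, 12 were past 2-fold, against 6.12% of all genes. ZNF236, ZNF461 and ZNF892 were longer in male cells, and ZNF214, ZNF423, ZNF425, ZNF550, ZNF597, ZNF649, ZNF684, ZNF775 and ZNF790 shorter. Against the age table's young female half-lives, from the same libraries, ZNF214 and ZNF423 were no longer past this limit. By the same values ZNF425 and ZNF649 changed direction and were longer in male cells. ZNF214 was then at 0.288 h in male against 0.279 h in young female cells, and ZNF425 at 0.304 against 0.0608 h. For ZNF649 that young female value was 0.00883 h, which is below its male value. Synthesis rates were at least 2-fold higher for 24 members and lower for 18, with 3.78% and 8.37% of all genes past these limits. Of the 42, 23 had a half-life under 0.1 h. The remaining 19, against 10.7% of all genes, were 8 higher and 11 lower, so the majority direction turned when members with a half-life under 0.1 h were left out. It turned as well with the age table's young female values, from the same libraries (20 higher and 31 lower, with the offset between the tables included). Centring on all genes gave 33 higher and 13 lower, so the split had no stable direction.

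For implied level 0 members were at least 2-fold higher in male cells and 4 lower, with 3.00% and 1.61% of all genes past these limits. The 4 were ZNF554, at 66.0 in male against 184 in female cells, ZNF143, at 318 against 673, ZNF330, at 398 against 796, and ZNF502, at 262 against 526. All 4 had half-lives of 1 to 24 h in every column. The level of ZNF554 was the lowest of any member in male cells. ZNF330 and ZNF502 were only just past the limit, with log2 ratios of −1.003 and −1.005. The half-life of ZNF143 was 1.85 h in male against 1.40 h in female cells and its synthesis rate 120 against 333, so its lower level lay on the side of synthesis.

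Within 1 to 24 h in all 4 columns, 4 of 145 members were past 2-fold for half-life (3.46% of all genes in that range), 9 for synthesis rate (8.36%) and 4 for implied level (2.66%). Half-lives were most extended in male cells for ZNF236, at 7.33 against 2.43 h, ZNF461, at 5.397 against 1.90 h, and ZNF892, at 3.92 against 1.77 h. Their implied levels had log2 ratios of −0.41, −0.21 and 0.23. The lowest log2 ratio was that of ZNF423, at 3.35 against 8.01 h, followed by ZNF594, at 2.81 against 4.59 h, and ZNF414, at 1.63 against 2.53 h. For ZNF461 and ZNF423 the young female half-life in the age table was shorter than in the sex table, at 1.29 and 6.44 h; against that value ZNF461 was longer by more in male cells and ZNF423 shorter by less than 2-fold.

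The lowest log2 ratios of synthesis rate in male cells within this range were those of ZNF236 (−2.004), ZNF554 (−1.89) and ZNF461 (−1.72), and the highest those of ZNF469 (1.25), ZNF428 (0.97) and ZNF594 (0.95). Implied levels had their highest log2 ratios for ZNF469 (0.97), at 1138 in male against 579 in female cells, ZNF581 (0.64) and ZNF428 (0.63). ZNF469 thus had its highest level in male cells and its lowest in old cells, with half-lives between 1.61 and 1.98 h in all 4 columns. The chondrocyte, fibroblast and osteoblast markers given above were also higher in male cells, and their part in the value of ZNF469 was not tested.

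The shift in male cells varied with half-life among members and other genes. With genes ordered by the old half-life, which did not enter the ratio, the members' half-life ratio had a median of −0.06 at 0.1 to 1 h, −0.02 at 1 to 1.5 h, 0.12 at 1.5 to 2 h, 0.14 at 2 to 4 h and 0.24 over 4 h on the log2 scale. For all other genes it was −0.02, 0.07, 0.15, 0.26 and 0.42, so the shortest-lived other genes also lengthened little, and members lay below the others in each range. For level, members had a median log2 level ratio of −0.35 at 0.1 to 1 h (80 members), −0.26 at 1 to 1.5 h (81 members), −0.10 at 1.5 to 2 h (33 members), 0.01 at 2 to 4 h (31 members) and 0.05 over 4 h (19 members). For all other genes in the same ranges it was −0.35, −0.32, −0.22, −0.10 and 0.24. Below 1.5 h the members and the other genes thus differed in level by at most 0.06; from 1.5 to 4 h the members' medians were above those of the others, and over 4 h below. The role list of KRAB genes had a median of −0.31, with 11 of 13 lower, and the list without KRAB −0.29, with 23 of 32 lower, where 72.8% of all members and 49.5% of all genes were lower. Because both comparisons use the same young female samples, their values for the members are not independent of each other.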

How the data were processed

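Cartilage cells of 13 samples in 3 groups were labelled with 4sU for 4 h, and poly(A)-selected, strand-specific libraries were made after alkylation of the RNA, per the labels' protocols. The submitters' processing notes name cutadapt 4.5, STAR 2.5.3 and the build EquCab3.0; the kinetic model, gene filter, treatment of reads with several matches and way of combining replicates are not given in the sources used here. The authors deposited, per the file headers, 1 synthesis rate and 1 half-life per gene and group in 2 tables; there were 0 columns per sample, and the young column of the age table was read as the young female group, the only young group named for that table. Hours were read from the ceiling of 69.3 (ln 2 divided by 0.01) and from medians near the labelling time.

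Log2 ratios were computed within a table over all genes with pandas 2.3.3 and counted from an absolute log2 ratio of 1 (2-fold). No pseudocount, filter or p-value was used; the counting was checked on simulated data. Ratios use each table's own young female column. The members, the lists of genes and the tests were chosen with earlier results of these data known, and the limits of 0.1 h and the ranges of half-life after seeing the values. The rule for named members covered only those in both tables. It took the 10 shortest and 5 longest median half-lives, and the 5 highest and 3 lowest mean synthesis rates. Within 1 to 24 h in all 4 columns it took the 3 highest and 3 lowest log2 ratios of each comparison and parameter. Role lists, members past 2-fold and runs of neighbours were named besides. A plan to sort members by KRAB boxes in protein sequences was not carried out, because no protein sequences were used here.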

Additional observations from a re-analysis of the deposited data

How the results depend on the processing

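Of 104 alternative values of 20 results, 73 stayed within 1.5 times the reported count or 0.1 log2 units of the reported median, 28 moved further and 3 changed sign; 16 of the 104 belong to alternatives chosen after seeing the data. The 3 that changed sign were medians centred on all genes, 0.044 for half-life by age, and −0.22 for half-life and 0.057 for synthesis rate by sex. The majority direction of a count turned in 6 alternatives, 4 of them for synthesis rate by sex, 1 of which kept its count within the limit (51, with the other table's young female values). In the age comparison 25 members were past 2-fold in half-life, 32 in synthesis rate and 2 in level; the numbers became 49, 85 and 31 at a log2 threshold of 0.5, 0, 4 and 1 for members within 1 to 24 h in old and young cells, and 1, 8 and 1 when values under 0.1 h were dropped. In the sex comparison 35, 42 and 4 members became 58, 109 and 52 at 0.5. The 109 were 40 higher and 69 lower. Half-life and synthesis counts there became 4 (3 longer, 1 shorter) and 11 (1 higher, 10 lower) within 1 to 24 h, and 12 and 19 without values under 0.1 h. After centring, 1 member was past 2-fold for level by age. The level median by sex was −0.14 within 1 to 24 h, and the synthesis medians were 0.37 by age and −0.37 by sex when each table borrowed the young female column of the other. These 2 synthesis medians include the offset between the young female columns, a median log2 ratio of −0.066 over all genes. In the order young female (age table), old, young female (sex table) and male, 169, 177, 160 and 154 members were under 1.5 h and 12, 14, 8 and 24 under 0.5 h. Median half-lives kept within the limit under every alternative run. No paired analysis was possible because the tables hold 1 value per group and none per replicate, and for the same reason no replicate could be left out. The KRAB box alternatives were not run. Under simple decay less than 0.391% of older RNA is left after 4 h at half-lives under 0.5 h; whether this bears on the low values was not tested.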

Other observations

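Zinc finger families with other names were also measured, and each had shorter median half-lives than the 3.64 h of all genes in young female cells of the age table. For young female cells in the age table, medians were 1.31 h for 17 genes named ZFP, 0.932 h for 19 named ZSCAN or ZKSCAN, 1.28 h for 37 named ZBTB and 1.27 h for 13 named KLF, against 1.23 h for ZNF members. In old cells the medians were 1.49, 0.946, 1.26 and 1.08 h, and in male cells 1.48, 0.961, 1.29 and 1.24 h. SCAN-named genes had the shortest median of these families in each of the 4 columns, and 11 of 19 were under 1 h in young female cells of the age table, where 5.95% of all genes were. Values under 0.1 h were also present in each of these families in at least 1 column: 2 of 17 ZFP genes in old cells, 2 of 19 ZSCAN or ZKSCAN genes, 2 of 37 ZBTB genes and 2 of 13 KLF genes in male cells, where 1.17% of all genes in old and 1.14% in male cells had such values. These families were chosen by name, and the differences between their medians were not tested.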
